A study of Homo sapiens with 12 samples.

Results

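The comparison is between Caco-2 cells that received ochratoxin A (OTA) together with the bacterium Bacillus subtilis CW14, called the combined group, and cells that received OTA alone, called the OTA group. Its differences rest on 6 of the 12 RNA libraries of the series, 3 of each group, taken by their treatment labels. The other libraries were 3 from cells in transport buffer alone (control) and 3 from cells given CW14 without toxin (CW14). All cells were Caco-2, 1 line from a human colon adenocarcinoma, grown without other cell types on transwell inserts for 21 days. OTA was given at 15 µmol/L in the apical chamber, where the bacteria were also added. How long the cells were exposed is not stated in those labels. The titles number the replicates and do not name separate cultures. Unless libraries were left out, a p-value here measures the spread within groups over all 12 libraries, part of which may be technical.

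OTA is a toxin that moulds make on stored grain and other food. It resembles phenylalanine and interferes with the charging of the tRNA for that amino acid, and it injures kidney and gut epithelium. B. subtilis is a spore-forming soil and gut bacterium used in feed and food, and the series title names CW14 as a probiotic that lessens barrier damage and toxicity of OTA. Differentiated Caco-2 cells form a polarised sheet with tight junctions and a brush border and are a common model of small intestinal enterocytes. In RNA from whole wells, fewer cells of a kind and less RNA per cell cannot be told apart.

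Values are FPKM, fragments scaled by transcript length and by the number mapped in the library. Differences are given on the log2(FPKM + 1) scale, which understates the change of low genes, and a gene is called at a limma adjusted p under 0.05. Of 26125 entries in the table, 12928 averaged 1 FPKM or more across the 12 libraries and were tested. All 12 enterocyte and epithelial markers chosen were present in each library, with KRT8 at 1890 FPKM or more and VIL1 between 19.2 and 34.6 FPKM. Sucrase-isomaltase (SI), a brush border enzyme outside those 12, was at 0.148 FPKM or less in every library and was not tested. Combined replicate 3 stood apart from all other libraries. Its residual SD was 0.588 on the log2 scale, against 0.305 to 0.424 elsewhere, and its depth relative to control replicate 1 was the lowest, at 0.471 against 0.642 to 1.60. Combined replicates 1 and 2 had depths of 0.642 and 0.672, and OTA replicates 1, 2 and 3 had 1.60, 0.659 and 1.16. The mean correlation of combined replicate 3 with the other libraries of its group was 0.885, against 0.916 and 0.930 for combined replicates 2 and 1. Most list counts and some single genes below are given with and without it.

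Adding the bacteria to the toxin changed 2070 of the 12928 genes, 16.0% of those tested, with 1007 higher (7.79%) and 1063 lower (8.22%) in the combined group. The difference reached 1 log2 unit in 252 of the higher and 232 of the lower genes. The median difference over all tested genes was 0.03. The median standard error of a difference was 0.21. Without regard to size or test, the 3 combined libraries lay wholly above or wholly below the 3 OTA libraries in 4441 genes (34.4%). With each library centred on its median the split was 774 higher and 1335 lower, so 36.7% of called genes were higher, against 48.6%. Single libraries weighed on the count of calls: it was 945, 653 and 753 without OTA replicates 1, 2 and 3, 3388 without combined replicate 2 and 70 when the model held the compared groups alone, or 2162 when it held those without combined replicate 3. The counts of list members below stand against 7.79% higher and 8.22% lower over all genes, or 9.41% and 11.8% without that library.

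Leaving out combined replicate 3 raised the number of called genes to 2738 (21.2%), 1217 higher (9.41%) and 1521 lower (11.8%). Both fits called 1785 genes, each in the same direction in both, which is 86.2% of the calls with all libraries and 65.2% of those without replicate 3. A further 285 genes were called only with replicate 3 and 953 only without it. Among the 2070 called genes, which were chosen with replicate 3 in the fit, it lay farther from the OTA mean than the mean of replicates 1 and 2 in 1580. It lay on the opposite side in 0, as did the mean of replicates 1 and 2, an outcome that calling itself favours. In whole lists below, the median of replicate 3 lay on the same side for hypoxia targets and DNA replication. It lay on the other side for ribosomal proteins, mucins and glycolysis. Over the 818 genes called higher in both fits the median distance from the OTA mean was 0.76, 0.68 and 0.97 for combined replicates 1, 2 and 3. Over the 967 called lower it was -0.66, -0.61 and -1.02.

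**Figure D1:**
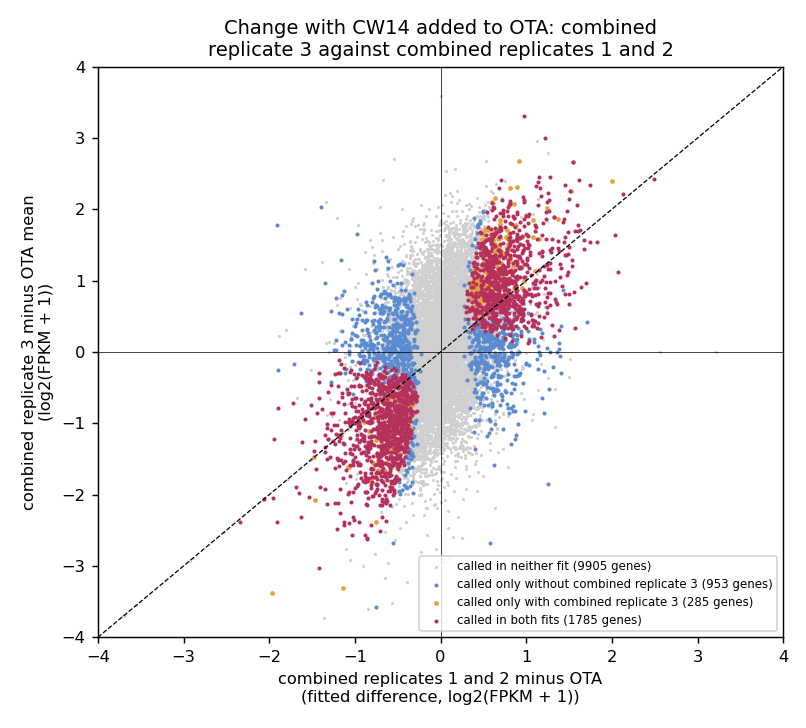
Each point is 1 tested gene, with the fitted difference from OTA without combined replicate 3 on the x axis and the difference of combined replicate 3 from the OTA mean on the y axis, both on the log2(FPKM + 1) scale; the dashed line marks equal change, and 32 genes lie outside the axes. The 1785 genes called in both fits lie in the lower left and upper right of the plot, and the 953 called only without replicate 3 include genes in which that library moved little or the other way.

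The targets of the hypoxia-inducible factors (HIF), the transcription factors that stabilise at low oxygen and raise glucose uptake, glycolysis and pH control, included many that were lower when the bacteria were present. Of 27 tested targets 13 were called lower and 0 higher, with a median difference of -0.79 against 0.03 for all genes. The members called were CA9, INSIG2, LOX, MXI1, HK2, BNIP3, BNIP3L, ERO1L, KDM3A, NDRG1, P4HA1, PLOD2 and SLC2A3, of which SLC2A3 was not called without combined replicate 3. The count was 16 lower and 0 higher without combined replicate 3, and 13 to 15 lower and 0 higher after median-centring, quantile normalization or a correction for GC content. The 250 bases before the start site are shown for the pair with the largest falls, since the core of the HIF binding motif can be read in them (RefSeq, GRCh38.p14). Capitals mark ACGTG or GCGTG on either strand.

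CA9 (chr9:35673678-35673927, plus strand): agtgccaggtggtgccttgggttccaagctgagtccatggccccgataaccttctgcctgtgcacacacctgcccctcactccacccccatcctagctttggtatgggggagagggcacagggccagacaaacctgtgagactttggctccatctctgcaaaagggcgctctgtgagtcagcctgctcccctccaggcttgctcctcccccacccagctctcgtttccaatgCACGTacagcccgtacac
INSIG2 (chr2:118088221-118088470, plus strand): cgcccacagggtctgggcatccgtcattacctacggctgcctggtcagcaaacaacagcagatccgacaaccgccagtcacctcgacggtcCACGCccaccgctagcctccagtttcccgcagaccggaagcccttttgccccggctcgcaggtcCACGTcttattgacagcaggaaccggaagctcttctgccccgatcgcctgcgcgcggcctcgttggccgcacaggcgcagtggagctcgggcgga

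The match in CA9 began 18 bases before the start site, and those in INSIG2 began 159 and 95 bases before it. This short core was common: it stood in 43.2% of all 35116 promoter windows in the table. Counted per gene over any listed start, it was in 47.4% of 27305 genes, in 19 of 22 tested hypoxia targets with a promoter entry and in 9 of the 9 called lower that had one. A match is a description of the letters, not of binding.

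CA9, a membrane carbonic anhydrase that exports acid, was at 22.7, 28.4 and 24.4 FPKM with OTA and at 7.4, 7.49 and 4.26 FPKM with OTA and CW14 (locus chr9:35673913-35681154 in hg19). Its difference was -1.85 ± 0.20 (SE), adjusted p = 0.00158. All 3 combined libraries were below all 3 of each other group, since the controls held 21.7, 16 and 14.7 FPKM. INSIG2, a regulator of sterol synthesis in the endoplasmic reticulum, went from 88, 93.6 and 92.8 FPKM to 33, 34.7 and 23.8 FPKM, a difference of -1.57 ± 0.20 (SE), adjusted p = 0.002. Its control libraries were at 48.5, 44.2 and 40.5 FPKM, above the combined libraries and below the OTA libraries. MXI1, a repressor of MYC targets, fell from 86.9, 92.8 and 66.5 FPKM to 37.9, 32.2 and 28.2 FPKM (-1.29, adjusted p = 0.00297). LOX, which cross-links collagen, fell from 61, 62.6 and 68.1 FPKM to 27.6, 34.3 and 9.9 FPKM. In LOX the depth of the fall depended on replicate 3: the difference was -1.54 with it and -1.03 without it, adjusted p = 0.0128 and 0.00211. HK2, the hexokinase that starts glycolysis, differed by -1.16, adjusted p = 0.00711.

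The change with CW14 was compared with and without the toxin by an interaction term, the difference made by CW14 in the presence of OTA minus that in its absence. It was called lower for 11 of the 27 hypoxia targets and higher for 0, against 1.49% and 1.85% of all tested genes. It was -2.05 ± 0.28 (SE) for INSIG2, adjusted p = 0.00782, and -1.74 ± 0.28 for CA9, adjusted p = 0.0164. The median change with CW14 alone over the 27 genes was 0.24. Interaction calls depended on single libraries, with counts over all genes from 17 to 1595 when 1 library was left out.

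Many genes of DNA replication were higher. Of 32 tested members 17 were higher and 0 lower, with a median of 0.60; without combined replicate 3 the count was 15 and 0, with a median of 0.44. Every called member was higher: CDC6, GINS2, GINS3, MCM2 to MCM7 and MCM10 among the licensing and helicase genes, the nuclease FEN1, PCNA and RFC2 of the sliding clamp and its loader, and POLA1, POLA2, POLD3 and POLE of the polymerases. Without replicate 3 PCNA, POLA1 and POLA2 were not called. Counts under median-centring, quantile normalization and GC correction were 14 to 17 higher and 0 lower.

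FEN1, the flap endonuclease that trims Okazaki fragments, was at 28.5, 31.5 and 31.2 FPKM with OTA and at 70.1, 70.6 and 62.3 FPKM with OTA and CW14 (locus chr11:61560107-61564714). The difference was 1.13 ± 0.13 (SE), adjusted p = 0.00194. The combined libraries exceeded the controls as well, at 38.2, 48.7 and 50.5 FPKM. GINS3, part of the replicative helicase, went from 4.96, 3.87 and 3.67 FPKM to 12.1, 12.3 and 7.19 FPKM (1.13, adjusted p = 0.0072). MCM3, of the helicase ring, went from 18.9, 19.9 and 18.7 FPKM to 33.7, 34.4 and 55.7 FPKM (1.03, adjusted p = 0.0072). The spread within the combined group came from replicate 3, which was the highest for MCM3 and the lowest for GINS3. MCM5 rose by 1.06 with all libraries and by 0.64 without replicate 3, adjusted p = 0.038 and 0.0499. H2AFX, the histone variant that is phosphorylated at DNA breaks, lies outside this list and rose from 114, 116 and 107 FPKM to 213, 199 and 251 FPKM (0.96, adjusted p = 0.00249).

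The window before MCM6 is shown because it held 4 matches to the E2F motif. This helicase subunit was at 12.2, 12.2 and 12.1 FPKM with OTA and 15.6, 18.2 and 26.8 FPKM in the combined group (0.65, adjusted p = 0.0305). Capitals mark TTTCGCGC or TTTGGCGC on either strand in the 250 bases before the start, read along the gene.

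MCM6 (chr2:135876444-135876693, minus strand): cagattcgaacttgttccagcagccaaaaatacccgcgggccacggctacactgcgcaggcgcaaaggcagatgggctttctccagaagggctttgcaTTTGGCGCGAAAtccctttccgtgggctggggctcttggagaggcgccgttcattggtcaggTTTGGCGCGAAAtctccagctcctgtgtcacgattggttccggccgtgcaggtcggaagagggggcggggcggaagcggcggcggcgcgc

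The matches lie in pairs that overlap on opposite strands and start 152, 148, 90 and 86 bases before the start site. The motif stood in 0.968% of all 35116 windows. Per gene it was in 1.20% of 27305 genes, in 5 of 28 tested replication genes with an entry, and in 5 of the 14 of them called higher. E2F factors are known as drivers of S phase genes, and their binding was not measured.

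Genes of mitosis were called at shares of 3.57% higher and 10.7% lower, near those of all genes. Of 28 tested, 1 was higher and 3 lower, with a median of -0.12, and under quantile normalization 0 were higher and 1 lower. The member higher was CCNF, at 0.55 with adjusted p = 0.0482, a call lost without replicate 3, adjusted p = 0.0827, and after GC correction, adjusted p = 0.176. TOP2A, which untangles chromosomes, went from 75.8, 77.6 and 76.5 FPKM to 53.1, 50.3 and 59.9 FPKM, and AURKA, a spindle kinase, from 142, 136 and 114 FPKM to 94.2, 101 and 100 FPKM. Both falls were small, -0.49 and -0.40, adjusted p = 0.0251 and 0.0374. CCNA2, a cyclin of S phase and mitosis, differed by -0.50, adjusted p = 0.0256. After GC correction the calls of TOP2A and CCNA2 were lost, adjusted p = 0.36 and 0.0593. Clustered histone genes, whose transcripts lack a poly(A) tail and are made in S phase, were lower in 9 of 58 tested and higher in 0. Without combined replicate 3 it was 8 lower (13.8%, against 11.8% of all genes) and 0 higher. Several of the 9 were called only with that library, HIST1H4D and HIST1H4H among them. HIST1H4B was at 15.2, 28.8 and 7.63 FPKM with OTA and 2.24, 4.29 and 2.89 FPKM in the combined group (-1.99, adjusted p = 0.0073). HIST3H2BB went from 15.9, 19.6 and 15 FPKM to 7.97, 2.54 and 3.49 FPKM. Histone genes of a kind are close copies of each other, so reads may have been split between them.

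With all libraries, the called genes that build ribosomes were higher and the called genes of the ribosome itself were lower. Of 32 nucleolar biogenesis factors tested, 11 were higher and 0 lower, with a median of 0.49; the count without combined replicate 3 was 12 higher and 1 lower. NOP2, which methylates ribosomal RNA, was at 17.3, 14.8 and 13.9 FPKM with OTA and 33.4, 30.7 and 56.1 FPKM with OTA and CW14. The difference was 1.29 ± 0.21 (SE), adjusted p = 0.00421, and the combined libraries did not overlap the OTA libraries. POLR1C and POLR1A, subunits of RNA polymerase I, went from 1.53, 1.33 and 1.51 FPKM to 4.08, 2.86 and 5.9 FPKM and from 2.05, 1.81 and 1.88 FPKM to 4.51, 5.6 and 4.13 FPKM. CD3EAP, another subunit of that polymerase and among the 12 largest rises of all genes, went from 2.75, 1.38 and 2.51 FPKM to 8.33, 10.9 and 15 FPKM (1.94, adjusted p = 0.00317). PUS1, which makes pseudouridine in tRNA, went from 6.86, 9.92 and 8.69 FPKM to 26, 18.8 and 27.3 FPKM (1.39, adjusted p = 0.002). RRS1, an assembly factor of the large subunit, rose by 0.89, adjusted p = 0.0233, and lost its call after GC correction, adjusted p = 0.101.

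Among 81 tested cytosolic ribosomal protein genes, 18 were lower and 0 higher, with a median of -0.47. Here replicate 3 decided the count: without it 59 were lower and 0 higher, and the median was -0.78. The list's median distance from the OTA mean was -0.71 and -0.86 in combined replicates 1 and 2 and 0.10 in replicate 3. RPL3 was among the members on which all 3 libraries were alike, at 786, 737 and 775 FPKM with OTA and 406, 378 and 371 FPKM with OTA and CW14 (-0.99 ± 0.12 (SE), adjusted p = 0.002). The controls were at 486, 478 and 417 FPKM, beside the combined group and below the OTA group. RPL30 went from 246, 288 and 229 FPKM to 113, 109 and 83.1 FPKM and RPL9 from 40.7, 32.3 and 28.4 FPKM to 18, 12.1 and 13.1 FPKM. Ribosomal protein genes have many processed copies in the genome, so these values carry the uncertainty of the authors' counting. Of 17 tested host genes of small nucleolar RNAs, 3 were lower and 0 higher, and 7 lower and 0 higher without replicate 3.

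Immediate early genes, which code for transcription factors made soon after a stimulus, included many that fell further when bacteria were added to the toxin. Of 41 tested immediate early and MAPK feedback genes, 12 were lower and 2 higher, with a median of -0.29. Without combined replicate 3 it was 11 and 1, with a median of -0.15, and after GC correction 13 and 0. FOS (locus chr14:75745479-75748937) was at 49.6, 59.1 and 52.4 FPKM with OTA and at 12.6, 14.5 and 9.49 FPKM with OTA and CW14, against 486, 437 and 358 FPKM in the controls. The difference was -2.07 ± 0.21 (SE), adjusted p = 0.00158, and -1.91 without combined replicate 3. FOS was also lower with CW14 alone, at 155, 128 and 87.8 FPKM, and its interaction was -0.26 ± 0.30, adjusted p = 0.618. JUN, the partner of FOS in the AP-1 factor, went from 98.2, 100 and 116 FPKM to 43.6, 44.2 and 23.3 FPKM (-1.53, adjusted p = 0.00265). With CW14 alone its libraries overlapped the controls, at 457, 365 and 374 FPKM against 472, 464 and 399 FPKM. DUSP1, the phosphatase that ends MAPK signalling, went from 23.6, 28.1 and 25.3 FPKM to 15, 10 and 6.11 FPKM and ATF3, a stress-induced repressor, from 30.7, 26.1 and 19.6 FPKM to 16.1, 17.2 and 11.8 FPKM. The member EGR1, far below its control level of 281, 281 and 249 FPKM in both toxin groups, differed by -0.04 ± 0.16 (SE), adjusted p = 0.89. SPRY4 and DUSP4, feedback inhibitors of the ERK pathway, were the members called higher. The call of DUSP4 was lost without replicate 3, adjusted p = 0.0664, and after GC correction, adjusted p = 0.0528.

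Some inducible chaperones were lower too. Of 23 tested heat shock genes 6 were lower (26.1%, against 8.22% of all genes) and 0 higher, and with CW14 alone 7 were lower and 0 higher. Under quantile normalization the first count became 3 lower and 2 higher. HSPA6, a strictly inducible chaperone of the HSP70 family, was at 17.7, 22.6 and 17.5 FPKM with OTA and 4.22, 2.01 and 2.87 FPKM with OTA and CW14 (-2.36 ± 0.38 (SE), adjusted p = 0.00414). It was at 81.6, 92.4 and 80 FPKM in the controls and 22.3, 13.5 and 5.08 FPKM with CW14 alone. It shares near-identical sequence with HSPA7, so reads may be divided between them. DNAJB1, which loads clients onto HSP70, went from 76.3, 85.7 and 70.6 FPKM to 44.1, 51 and 37.7 FPKM (-0.80, adjusted p = 0.0246). HSPA1A, itself close to a duplicate gene, differed by -0.73, adjusted p = 0.0462, and was not called without replicate 3, adjusted p = 0.0902. Of 19 genes called lower with CW14 alone (0.147% of those tested), 10 were called lower and 1 higher when CW14 was added to OTA. Those lower were BAG3, DNAJB1, FOS, HSPA1A, HSPA5, HSPA6, HSPA7, HSPA8, PLK2 and RGS2, and FRAT2 was higher.

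The HSPA6 window is shown because it held the arrangement of repeats that heat shock factor binds, and few others did. Capitals mark GAA, TTC and GAA in turn with 2 bases between neighbours, or TTC, GAA and TTC spaced likewise, which is the same motif on the other strand.

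HSPA6 (chr1:161524290-161524539, plus strand): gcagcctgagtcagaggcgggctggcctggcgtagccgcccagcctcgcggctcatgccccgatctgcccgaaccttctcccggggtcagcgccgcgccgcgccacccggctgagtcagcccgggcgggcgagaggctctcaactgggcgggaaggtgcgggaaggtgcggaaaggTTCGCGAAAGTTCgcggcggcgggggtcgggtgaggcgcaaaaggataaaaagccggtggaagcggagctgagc

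The match began 74 bases before the start site. It stood in 0.441% of all 35116 windows, and per gene in 0.557% of 27305 genes, in 6 of 21 tested heat shock genes with an entry and in 2 of the 6 called lower.

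Of the genes of junctions some were lower and 0 were called higher. Of 29 tested tight junction genes 5 were lower and 0 higher, and 7 and 0 without replicate 3, where 8.22% and 11.8% of all genes were lower. Occludin (OCLN, locus chr5:68788117-68853931), a membrane protein of the tight junction, was at 41.4, 47.3 and 36.8 FPKM with OTA and 32.4, 30.8 and 24.6 FPKM with OTA and CW14, against 84.3, 77.7 and 88.3 FPKM in the controls. Its difference was -0.50 ± 0.14 (SE), adjusted p = 0.0312. The call was kept without replicate 3 and lost after GC correction, adjusted p = 0.164. Claudin-1 (CLDN1), a sealing claudin, went from 174, 187 and 182 FPKM to 104, 135 and 53.6 FPKM; the difference was -0.98, adjusted p = 0.0258, and -0.60 without replicate 3. CLDN16, a claudin of magnesium transport, was lower from a low level, 4.8, 5.17 and 8.66 FPKM to 2.26, 2.44 and 0.803 FPKM. PRKCI, a polarity kinase, was also called lower.

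Claudin-4 and ZO-1 were well below their control levels in both toxin groups, and neither was called when bacteria were added. CLDN4 was at 408, 474 and 353 FPKM with OTA and 398, 378 and 316 FPKM in the combined group, against 1839, 1726 and 1745 FPKM in the controls. The difference was -0.17 ± 0.14 (SE), adjusted p = 0.422. TJP1, the gene of ZO-1, was at 14, 14.1 and 13.6 FPKM with OTA and 18.1, 17.8 and 9.86 FPKM in the combined group against 42.4, 42 and 48.4 FPKM in the controls (0.08 ± 0.21 (SE), adjusted p = 0.825). Combined replicates 1 and 2 lay above the OTA libraries and replicate 3 below them; without replicate 3 the difference was 0.34, adjusted p = 0.0883. CLDN2, CLDN3 and CLDN7 differed by 0.10, 0.26 and -0.10, with adjusted p = 0.728, 0.394 and 0.655.

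In adherens junctions and desmosomes, which hold neighbouring cells together, 7 of 20 tested genes were lower and 0 higher, with a median of -0.43. Without combined replicate 3 it was 6 and 0, with a median of -0.24. CDH17, the liver-intestine cadherin, went from 357, 377 and 398 FPKM to 214, 203 and 215 FPKM (-0.84 ± 0.13 (SE), adjusted p = 0.00355). DSG2, a desmosomal cadherin, went from 75.2, 77.8 and 87.9 FPKM to 42.6, 46.2 and 28.3 FPKM and PERP, a desmosome-linked membrane protein, from 332, 332 and 335 FPKM to 215, 211 and 148 FPKM. E-cadherin (CDH1) was at 337, 315 and 347 FPKM with OTA and 264, 261 and 204 FPKM with OTA and CW14 (-0.46, adjusted p = 0.0267). The combined libraries lay below the OTA libraries in each of these 4 genes. The other members called lower were DSC2, EPCAM and PVRL3, of which DSC2 and PVRL3 were not called without replicate 3 (adjusted p = 0.0538 for DSC2). Under quantile normalization 4 of the 20 were called lower and 0 higher.

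Of 19 tested brush border genes 8 were lower (42.1%, against 8.22% of all genes) and 0 higher, and 12 and 0 without replicate 3. DPP4, a dipeptidyl peptidase of the microvillus membrane, went from 131, 129 and 172 FPKM to 78, 74.1 and 72.9 FPKM (-0.92 ± 0.18 (SE), adjusted p = 0.0086). CDHR2, which links the tips of microvilli, went from 5.14, 4.69 and 5.93 FPKM to 2.37, 1.68 and 2.08 FPKM and PLS1, an actin bundler, from 23.3, 29.4 and 30 FPKM to 16.9, 15 and 7.25 FPKM. The markers VIL1 and ALPI differed by -0.24 and -0.24, adjusted p = 0.233 and 0.459.

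Among 23 tested transporters 5 were lower (21.7%) and 1 higher (4.35%), and 8 and 1 without replicate 3. SLC3A1, the heavy chain of the basic amino acid transporter, had the largest fall of the genes called in both fits: 13.7, 15.7 and 18.6 FPKM with OTA and 4.83, 3.6 and 0 FPKM in the combined group. The 0 in replicate 3 may be a failed estimate, and without that library the difference was -1.71, adjusted p = 0.00238, against -2.50 with it. SLC11A2 and SLC40A1, which take iron in at the apical and release it at the basolateral membrane, went from 393, 438 and 547 FPKM to 232, 246 and 133 FPKM and from 88.3, 102 and 124 FPKM to 61, 71.7 and 34.7 FPKM. SLC7A5, which carries large neutral amino acids such as phenylalanine, was the member called higher, at 27.9, 22 and 21.7 FPKM with OTA and 70.3, 65.4 and 51.2 FPKM with OTA and CW14 (1.34 ± 0.22 (SE), adjusted p = 0.00461). The controls were at 56.3, 63.8 and 89.9 FPKM.

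Membrane mucins are glycoproteins of the apical coat, and MUC13, MUC17 and MUC3A were lower. MUC13 was at 155, 150 and 172 FPKM with OTA and 69.5, 63.3 and 77 FPKM with OTA and CW14, against 271, 200 and 225 FPKM in the controls (-1.17 ± 0.15 (SE), adjusted p = 0.002). MUC17 went from 7.68, 8.67 and 13.4 FPKM to 3.65, 2.85 and 1.42 FPKM and MUC3A from 25.5, 23 and 27.8 FPKM to 12.3, 15.7 and 16.7 FPKM. In the whole list of 10 tested, 3 were lower and 1 higher, and 6 lower and 0 higher without replicate 3. The member higher was MUC1, also a membrane mucin, which went from 0.528, 0 and 0.79 FPKM to 1.88, 1.08 and 5.87 FPKM (1.30, adjusted p = 0.0449). MUC1 passed the filter only through the combined group, which favours a rise. Its call was lost without replicate 3, adjusted p = 0.0877, and after GC correction, adjusted p = 0.0789. The list's median distance from OTA was -0.93 and -0.70 in combined replicates 1 and 2 and 0.47 in replicate 3.

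In contrast to the structural genes, transcription factors of the enterocyte lineage were called higher more often than lower. Of 21 tested, 7 were higher, CDX2, FOXA2, FOXA3, GATA6 and HNF4A among them, and 2 lower (KLF4 and NR1I2). FOXA2, a pioneer factor of gut endoderm, was at 18.8, 19.3 and 15.9 FPKM with OTA and 35.9, 33.7 and 56 FPKM with OTA and CW14 (1.14 ± 0.18 (SE), adjusted p = 0.00378). The controls held 61.1, 58 and 60.2 FPKM, above every OTA library. GATA6 went from 17.1, 14.9 and 13 FPKM to 34.1, 32.7 and 24.5 FPKM. NR1I2, the pregnane X receptor, which controls drug metabolism, was lower, from 3.62, 5.58 and 2.9 FPKM to 1.66, 1.47 and 0.647 FPKM. The count was 8 higher and 3 lower without replicate 3 and 4 higher and 2 lower after GC correction.

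Genes of crypt stem cells and of Wnt signalling, the pathway that maintains those cells, had a median of 0.70, with 7 of 20 tested genes higher and 1 lower. Without replicate 3 the count was 11 and 1, and after GC correction 5 and 1. SP5, a direct Wnt target, was at 15.7, 16.1 and 14.7 FPKM with OTA and 47, 38.8 and 36.5 FPKM with OTA and CW14 (1.33 ± 0.17 (SE), adjusted p = 0.002). DKK1, a secreted Wnt antagonist that the pathway itself induces, went from 63, 88.6 and 68.9 FPKM to 234, 198 and 131 FPKM. ASCL2, a stem cell factor, went from 20.3, 14.4 and 20 FPKM to 41, 35.4 and 47.7 FPKM, and its combined libraries were above those of every other group. With CW14 alone SP5 and DKK1 were below their controls, at 20, 14.9 and 20.1 against 25.5, 34.4 and 35.1 FPKM and at 114, 102 and 162 against 246, 270 and 465 FPKM. Neither fall was called, -0.76 and -1.34 with limma adjusted p = 0.127 and 0.0887. The interaction was 2.09 ± 0.24 for SP5 and 2.65 ± 0.39 for DKK1, adjusted p = 0.00651 and 0.0132. The member called lower was LGR4, a receptor for R-spondin, and replicate 3 set its size: 56.7, 66.6 and 61.3 FPKM against 33.4, 41.3 and 9.98 FPKM, a difference of -1.31 with that library and -0.71 without it. BAMBI and BMP4, of the BMP and TGF-beta pathway, rose by 1.37 and 1.02, adjusted p = 0.00429 and 0.00583. The list of 16 that holds them had 2 called higher and 1 lower, and 3 and 1 without replicate 3.

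**Figure D2:**
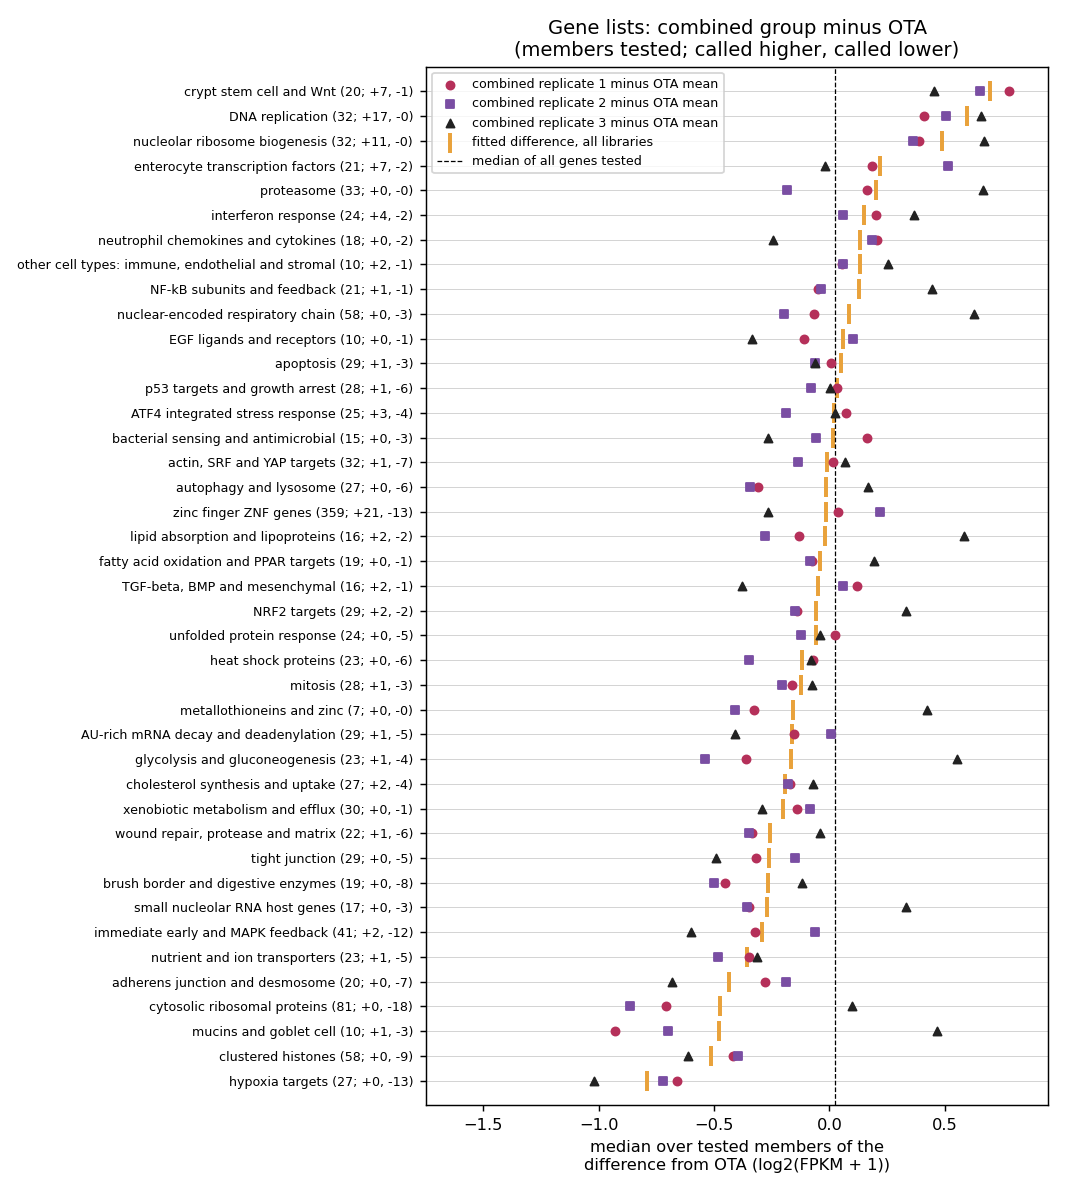
For each gene list the symbols give the median over its tested members of the difference of combined replicates 1, 2 and 3 from the OTA mean, and the bar the median fitted difference, all on the log2(FPKM + 1) scale; brackets hold the members tested, called higher (+) and called lower (-). Hypoxia targets, DNA replication, ribosome biogenesis and crypt stem cell and Wnt genes lie on the same side of 0 in all 3 libraries, whereas ribosomal proteins and mucins lie below 0 in replicates 1 and 2 and at 0.10 and 0.47 in replicate 3.

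CW14 alone raised some chemokine and cytokine genes in these cells. Of 18 tested members 5 (CXCL10, TNF, CSF1, CSF2 and CSF3) had a mean under 1 FPKM outside the CW14 group and so passed the filter only through it, which fixes their direction. Of the other 13, 5 were called higher with CW14 alone, where 0.217% of all genes were. When CW14 was added to OTA, 0 of the 18 were called higher and 2 lower by limma (3 higher and 2 lower at an unadjusted p under 0.05), and 3 were wholly above the OTA libraries against 17.8% of all genes. Over the 13 the median change with CW14 was 1.35 without and 0.13 with the toxin. In 3 of them (CXCL16, CCL28 and IL18) the change was larger in size with the toxin, and it was downward there. The interaction was called lower for 3 of the 13 (CXCL3, CCL28 and LTB) and higher for 0.

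CXCL8, the main neutrophil chemokine of the gut lining, was at 3.51, 4.36 and 2.43 FPKM in the controls and 127, 28.7 and 124 FPKM with CW14. It was at 2.59, 0.395 and 0.562 FPKM with OTA and 7.08, 2.9 and 0.55 FPKM with both, a difference of 0.88 ± 0.64 (SE), adjusted p = 0.355. TNF, which drives much of the epithelial inflammatory response, went from 0.827, 0.202 and 0.115 FPKM to 1.24, 1.38 and 0.842 FPKM (0.67, adjusted p = 0.0942), and from 0.929, 0.755 and 1.02 FPKM to 15, 9.76 and 19.1 FPKM without the toxin. For TNF the combined libraries were all above the OTA libraries, yet the test was not passed. CXCL1 went from 9.02, 2.79 and 6.88 FPKM to 13.6, 10.6 and 4.72 FPKM, with overlap. CSF2 was listed at 0 in all 3 combined libraries. The members called lower were CCL28, from 17.9, 16.4 and 19.3 FPKM to 10.7, 11.8 and 9.55 FPKM, and CXCL16, from 55.5, 51.1 and 49.7 FPKM to 41.4, 34.7 and 35.2 FPKM, both of which epithelium makes at rest. The call of CCL28 was lost after GC correction, adjusted p = 0.0862.

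**Figure D3:**
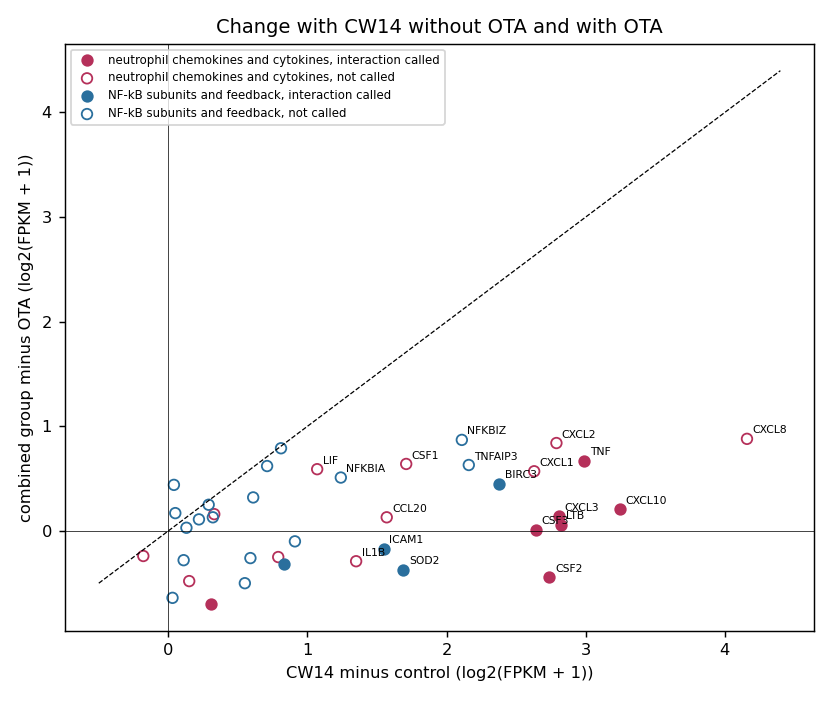
Each point is a gene of the cytokine list or of the NF-kB list, with its change with CW14 alone on the x axis and its change when CW14 was added to OTA on the y axis, on the log2(FPKM + 1) scale; filled points passed the interaction test, and the dashed line marks equal change. Each of the 18 cytokine genes, 5 of which passed the filter only through the CW14 group, lies below the line, and CXCL8 is farthest right, at 4.16 against 0.88.

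NF-kB is the factor behind most of these cytokines. Of 21 tested subunits and feedback genes, 1 was higher and 1 lower with OTA (2 and 1 without replicate 3), and 5 were higher and 0 lower with CW14 alone. NFKBIZ, a nuclear co-factor of NF-kB, was the one called higher, from 5.63, 4.33 and 3.94 FPKM to 10.2, 11.4 and 6.61 FPKM (0.87, adjusted p = 0.0381). TNFAIP3, the inhibitor A20, went from 10.5, 10.5 and 7.28 FPKM to 19.2, 21.1 and 8.14 FPKM. Its difference of 0.63 did not pass with all libraries, adjusted p = 0.232, and did without replicate 3, at 1.03 with adjusted p = 0.0313. PLAU, the urokinase protease, was raised by CW14 in both settings, from 1.33, 0.406 and 0.231 FPKM to 7.77, 3.84 and 3.96 FPKM with the toxin and from 1.78, 2.65 and 2.05 FPKM to 24.2, 10.3 and 31.5 FPKM without it. Its difference with the toxin was 1.90 ± 0.38 (SE), adjusted p = 0.0094, and its interaction was -0.84 ± 0.53, adjusted p = 0.353. Of 28 genes called higher with CW14 alone, 6 were higher and 0 lower when it was added to OTA: BMS1P18, CCL5, NFKBIZ, PLAU, TICAM1 and WBSCR27. Of these TICAM1 was not called without replicate 3.

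Among 15 tested genes of bacterial sensing and defence, 3 were lower and 0 higher, and 3 and 1 without replicate 3. TLR2, the receptor for lipoproteins of Gram-positive bacteria, went from 13.1, 11.9 and 14.9 FPKM to 8.4, 8.74 and 6.68 FPKM (-0.68, adjusted p = 0.0138). RIPK2, the kinase downstream of the peptidoglycan sensors NOD1 and NOD2, went from 11.7, 12.2 and 12.9 FPKM to 6.83, 5.92 and 5.69 FPKM (-0.89, adjusted p = 0.00369). TLR3 was low throughout, with 1.17, 0.609 and 0 FPKM in the combined group. Of 24 interferon-induced genes 4 were higher and 2 lower, and 3 and 2 without replicate 3. IFI6 went from 9.79, 5.26 and 6.82 FPKM to 24.5, 21 and 50 FPKM (1.92, adjusted p = 0.00634) and IFI27 from 3.45, 2.12 and 1.82 FPKM to 10.8, 8.25 and 17.1 FPKM (1.89, adjusted p = 0.0111). IRF1, a transcription factor of this response, was called with all libraries, adjusted p = 0.0369, and not without replicate 3, adjusted p = 0.0762.

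Stress programmes gave mixed counts. In the ATF4 list, the response to amino acid shortage, 3 of 25 tested were higher and 4 lower, and 2 and 6 without replicate 3. DDIT4, an inhibitor of mTOR, went from 157, 173 and 106 FPKM to 57.5, 53.1 and 63.2 FPKM (-1.29, adjusted p = 0.00409), while NUPR1, a small stress-induced chromatin protein, went from 0.19, 2.32 and 0.528 FPKM to 4.26, 4.07 and 7.65 FPKM (1.75, adjusted p = 0.0135). NUPR1 passed the filter only through the combined group, which favours a rise. Its call was lost with a pseudocount of 0.1 and without OTA replicate 1 or 3. DDIT3, the gene of CHOP, differed by -0.52, adjusted p = 0.146, and was lower without replicate 3, at -0.74 with adjusted p = 0.0284. In the unfolded protein response 5 of 24 were lower and 0 higher, without replicate 3 it was 5 and 1, and under quantile normalization 1 was lower and 2 higher. DNAJB9, a chaperone of the endoplasmic reticulum, went from 23.7, 28 and 18.8 FPKM to 11.1, 12 and 7.06 FPKM. HSP90B1 went from 308, 289 and 325 FPKM to 210, 202 and 210 FPKM and missed the threshold after GC correction, adjusted p = 0.0511. Among 28 p53 targets 6 were lower (21.4%) and 1 higher (3.57%), against 8.22% and 7.79% of all genes, and 6 and 2 without replicate 3. CCNG1 went from 294, 333 and 318 FPKM to 170, 179 and 119 FPKM (-1.03, adjusted p = 0.00369), GADD45B differed by -1.01, and CDKN1A, the gene of p21, differed by -0.13 ± 0.13 (SE), adjusted p = 0.492. The member called higher was AEN, an apoptosis nuclease, at 0.97. In the apoptosis list 1 of 29 was higher and 3 lower, and 2 and 3 without replicate 3.

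Genes that detoxify or answer oxidants were also listed. Of 30 tested genes of xenobiotic metabolism and efflux 1 was lower (SULT1E1, 3.33% against 8.22% of all genes) and 0 higher, and 3 and 0 without replicate 3. Of 29 NRF2 targets 2 were higher (HMOX1 and KEAP1) and 2 lower (MAFF and ME1), 6.90% each way, near the shares of all genes. After GC correction 0 were higher and 2 lower. The call of MAFF was lost without replicate 3, adjusted p = 0.0535, and that of KEAP1 after GC correction, adjusted p = 0.309. HMOX1, heme oxygenase, went from 8.96, 9.84 and 9.13 FPKM to 20.4, 12.1 and 19.9 FPKM; its call at adjusted p = 0.0333 was lost without replicate 3, adjusted p = 0.0582. NQO1 differed by 0.11 ± 0.14 (SE), adjusted p = 0.622. Of 33 proteasome genes 0 were called by limma, with 3 higher and 0 lower at an unadjusted p under 0.05, and 1 was higher and 1 lower without replicate 3. Of 7 tested metallothionein and zinc genes 0 were called by limma with or without replicate 3, and 0 at an unadjusted p under 0.05.

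In energy metabolism the outlying library pulled against the others. Of 23 genes of glycolysis and gluconeogenesis 4 were lower and 1 higher, and 11 lower and 1 higher without replicate 3. Their median distance from OTA was -0.36 and -0.54 in combined replicates 1 and 2 and 0.56 in replicate 3. PCK1, the rate-limiting enzyme of gluconeogenesis, was at 8.18, 12.2 and 8.29 FPKM with OTA and 1.46, 1.97 and 3.47 FPKM with OTA and CW14, against 173, 129 and 89.6 FPKM in the controls (-1.70 ± 0.29 (SE), adjusted p = 0.00512). MTTP, which loads lipid onto chylomicrons, went from 32.3, 37.2 and 46.8 FPKM to 13.1, 11.1 and 19.5 FPKM (-1.37, adjusted p = 0.00903). Of 58 nuclear-encoded respiratory chain genes 3 were lower and 0 higher, and 9 lower and 0 higher without replicate 3.

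Several of the largest changes fell outside the lists. EMP1, an epithelial membrane protein, went from 95.4, 111 and 83.1 FPKM to 33.3, 31.6 and 22.8 FPKM (-1.70 ± 0.18 (SE), adjusted p = 0.00158). It was at 180, 151 and 153 FPKM in the controls, so the combined libraries were the lowest of all groups. UGT2A3, a glucuronosyltransferase, went from 32.8, 44.2 and 52.4 FPKM to 13.7, 17 and 4.31 FPKM, and CP, the copper-carrying ferroxidase, from 15.6, 17.8 and 26.8 FPKM to 4.73, 6.03 and 4.53 FPKM. SORL1, a sorting receptor, went from 95.3, 96.8 and 116 FPKM to 39.8, 46.5 and 32.5 FPKM (-1.36, adjusted p = 0.002). PRKAB2, a subunit of the energy sensor AMPK, differed by -1.63, adjusted p = 0.00617, and by -1.20 without combined replicate 3. Among the rises were transcription factors: SOX2, of stem and progenitor cells, went from 1.73, 1.28 and 1.16 FPKM to 11.7, 7.52 and 10 FPKM (2.15 ± 0.32 (SE), adjusted p = 0.00297). FOXQ1, a forkhead factor, went from 14.1, 14 and 9.54 FPKM to 58.6, 52 and 28.1 FPKM, against 54.4, 65.2 and 96.9 FPKM in the controls.

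IFITM3, an antiviral membrane protein with the largest rise of the genes called in both fits, went from 5.77, 0 and 1.53 FPKM to 22.6, 7.87 and 12.9 FPKM (2.47 ± 0.59 (SE), adjusted p = 0.0189). Its OTA values were low and scattered, and the call was lost without OTA replicate 2, OTA replicate 3 or combined replicate 1. TMEM86B, an enzyme of plasmalogen breakdown, went from 16.4, 9.77 and 11.1 FPKM to 37.3, 33 and 65.6 FPKM. IBA57-AS1 was listed at 0 in the OTA libraries and at 1.36, 2.6 and 5.35 FPKM in the combined group; it lies antisense to IBA57, and without strand information reads of the pair cannot be told apart. LOC101927865 was the reverse, at 3.82, 3.12 and 2.67 FPKM with OTA and listed at 0 in the combined libraries. IBA57-AS1 passed the filter only through the combined group and LOC101927865 only through the OTA group, which favours their directions.

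**Figure D4:**
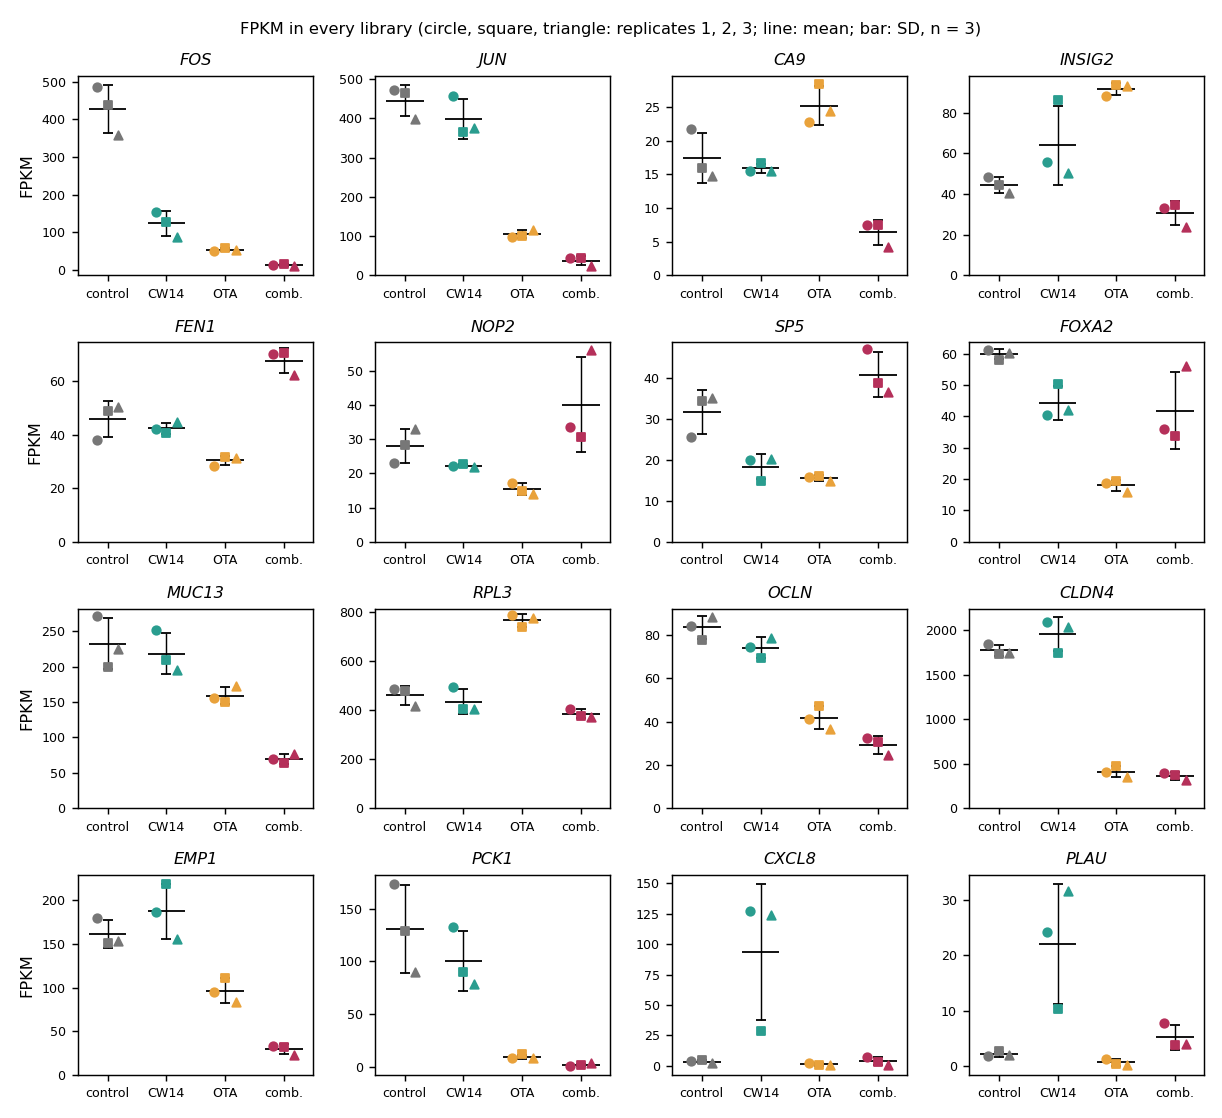
FPKM of 16 genes in every library of the 4 groups, with a line at the mean and a bar for the SD (n = 3); symbols stand for replicates 1, 2 and 3, and comb. is the combined group. CA9, EMP1, MUC13 and FOS were lowest in the combined group, FEN1 and SP5 were higher there than with OTA alone, CLDN4 was near 412 FPKM with OTA and 364 FPKM with both, and CXCL8 was high with CW14 alone.

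The genes whose difference depended most on combined replicate 3, among those called with all libraries, were SLC3A1, HIST1H4H, FAM133CP, LGR4 and CDK3. FAM133CP, a pseudogene, was at 1.89, 1.53 and 1.6 FPKM with OTA and 5.1, 3.5 and 25.5 FPKM in the combined group, so its difference was 1.75 with replicate 3 and 0.97 without it. CDK3, a cyclin-dependent kinase, was at 3.71, 0.578 and 2.37 FPKM with OTA and 5.95, 5.62 and 22.4 FPKM in the combined group. Its differences were 1.81 and 1.21. Both calls were kept without combined replicate 3. That of FAM133CP was lost without OTA replicate 1, 2 or 3, and that of CDK3 without OTA replicate 2 or 3. HIST1H4H was at 2, 5.74 and 0 FPKM in the combined group and was not called without combined replicate 3, adjusted p = 0.0548. The same held for HIST1H4D, at 0, 6.01 and 0 FPKM, adjusted p = 0.107.

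Called genes differed in base composition. The median GC content of the longest annotated transcript was 56.0% for genes called higher and 42.2% for genes called lower, against 48.8% for all tested genes. Across 12148 genes, which are not independent replicates, the difference between the groups followed GC with a Spearman rho of 0.445, and of 0.253 without combined replicate 3. By library, rho was 0.299, 0.166 and 0.519 for combined replicates 1, 2 and 3, and for CW14 against control it was -0.03. Over equal bins of the genes by GC, the median difference ran from -0.35 at 37.1% GC to 0.33 at 64.2% GC. A correction of each library for GC left 1680 called genes of 12148 (13.8%), 716 higher (5.89%) and 964 lower (7.94%).

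**Figure D5:**
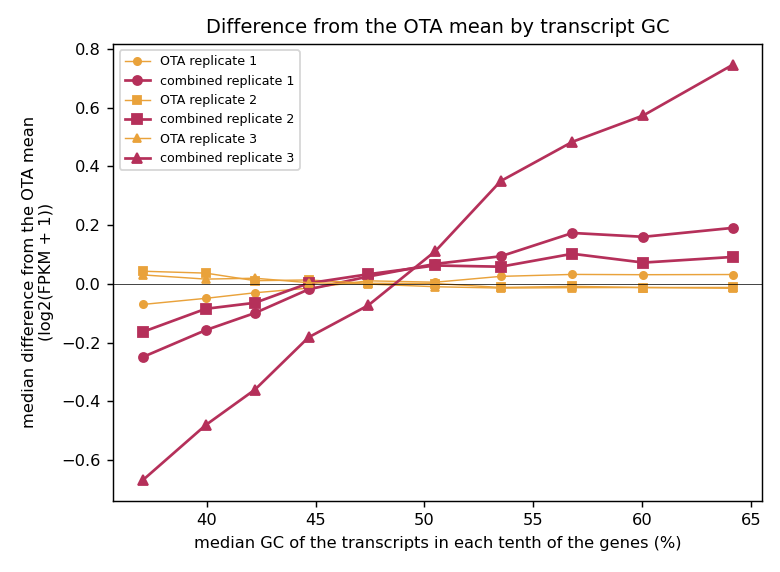
The median difference of each OTA and combined library from the OTA mean, on the log2(FPKM + 1) scale, is plotted for equal bins of the tested genes ordered by transcript GC content, given in percent. The line of combined replicate 3 runs from -0.67 to 0.75, those of combined replicates 1 and 2 from -0.25 to 0.19 and from -0.16 to 0.09, and those of the OTA libraries stay near 0.

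Markers of cell types that a Caco-2 culture should lack were measured as a check. Of 27 immune, endothelial and stromal genes 5 were listed at 0 in all 12 libraries (PTPRC, MS4A1, KDR, COL1A2 and DCN), and 12 were under 1 FPKM in each. The summed level was 211 to 250 FPKM in the OTA and 160 to 198 FPKM in the combined libraries, and without CD68, which this epithelial line also expressed, 110 to 130 FPKM and 111 to 135 FPKM. Of the 10 tested, CD14 and PDGFRA were higher (0.93 and 1.40, adjusted p = 0.0077 and 0.00854) and CD68 lower (-0.91, adjusted p = 0.0072). PDGFRA was at 0.396, 0.413 and 0.469 FPKM with OTA and 3.62, 3.28 and 1.67 FPKM in the combined group. It passed the filter only through the combined group, which favours a rise. The part of these genes in the other results was not tested.

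Across all genes the response to CW14 differed with and without the toxin in 431 genes by the interaction test (3.33%), 239 higher and 192 lower, against 47 genes (0.364%) that CW14 changed on its own. The 5 with the smallest adjusted p, SORL1, SP5, H2AFX, PUS1 and MRFAP1L1, all stood at 0.00651. MRFAP1L1 was at 55.9, 49.3 and 57.8 FPKM in the controls, 37.7, 36.4 and 30.3 FPKM with CW14, 21, 22.9 and 21.7 FPKM with OTA and 39.1, 43 and 39 FPKM with both. With the toxin the combined libraries were above the OTA libraries, and without it the CW14 libraries were below the controls. The difference without the toxin was not called, -0.63 with limma adjusted p = 0.0653. The count of interaction calls depended on single libraries: it was 1595 without combined replicate 3 and 1521 without combined replicate 2. It was 250, 19 and 17 without control replicates 1, 2 and 3, 93, 154 and 247 without CW14 replicates 1, 2 and 3, 81, 34 and 66 without OTA replicates 1, 2 and 3, and 184 without combined replicate 1.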

How the data were processed

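RNA of 12 Caco-2 libraries, 3 in each of 4 groups, was compared. The deposited values are FPKM per gene, made by the authors. The submitters' processing notes name Cufflinks 2.2.1 with Cuffnorm and Cuffdiff, TopHat2 2.0.13, cutadapt 1.10 and build hg19. Which annotation and which scaling across libraries the authors used is not given in the sources used here. Absolute depth is unknown. Relative depth, chosen as a check once the data had been seen, was read from the most common ratio of FPKM under 0.3 against control replicate 1 (tolerance 0.01 log2). Small RNA entries (2256) held 81.8% to 97.4% of the FPKM sum, so column sums were not used. In 28 entries a date replaced the symbol; 19 were tested, unnamed.

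Genes with a mean of 1 FPKM or more were analysed as log2(FPKM + 1) in limma 3.58.1 (R 4.3.3): 4 group means over all 12 libraries, which share 1 estimate of spread, a moderated two-sided test with intensity trend and 8 residual degrees of freedom, and Benjamini-Hochberg adjustment over all genes of a comparison. The script was tested on simulated data. Alternatives changed the pseudocount, filter, scaling, weights, replicate block, GC correction (loess, span 0.5) and libraries used.

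The comparison and the 41 gene lists were chosen with earlier results of these data known. Genes named were the 12 largest rises and falls called with and without combined replicate 3 whose groups did not overlap, up to 4 largest changes per list, a list of barrier, stress and cytokine genes, the 5 most moved by combined replicate 3 and the 5 smallest interaction p-values; a part of these is printed, and some genes are not reported here. MCM6 and other list members were chosen after their values were seen. GC content came from the longest GENCODE v29 transcript of a symbol (94.0% of tested genes had one), and promoters from RefSeq (GRCh38.p14), matched by symbol. Loci are printed as deposited.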

Additional observations from a re-analysis of the deposited data

Results flagged for a closer look

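Genes given with values above or below whose response to CW14 differed with and without OTA by the interaction test are listed by group. The value is the change made by CW14 in the presence of OTA minus that in its absence, on the log2 scale. Each value includes combined replicate 3. Adjusted p ranged from 0.00651 to 0.0471 by limma. For hypoxia targets it was -1.74 for CA9, -2.05 for INSIG2, -1.59 for MXI1 and -1.62 for HK2. Among junction genes the value was -1.56 for CLDN16 and -0.77 for CDH17. For mucins it was -1.09 for MUC13 and -1.86 for MUC17. Among cytokines the value was -2.33 for TNF, -3.18 for CSF2 and -1.0 for CCL28. For bacterial sensors it was -0.91 for TLR2 and -1.12 for RIPK2. Among immediate early genes the value was -1.37 for JUN and -1.20 for ATF3. For ribosomal proteins it was -0.91 for RPL3 and -1.65 for RPL9. Among replication genes and a histone variant the value was 1.23 for FEN1, 1.56 for GINS3, 1.28 for MCM3 and 1.65 for H2AFX. For ribosome biogenesis and RNA modification it was 1.60 for NOP2, 1.47 for POLR1C, 1.98 for CD3EAP and 2.07 for PUS1. Among Wnt, BMP and TGF-beta genes the value was 2.09 for SP5, 2.65 for DKK1, 1.35 for ASCL2, 1.90 for BAMBI and 1.30 for BMP4. For transcription factors it was 2.71 for SOX2, 2.09 for FOXQ1, 1.58 for FOXA2 and 1.62 for ZNF503. Of the other genes, positive values were 2.34 for NUPR1, 1.82 for TMEM86B, 1.48 for SLC7A5, 0.90 for KEAP1, 1.58 for PDGFRA and 1.48 for MRFAP1L1. Negative values were -1.91 for EMP1, -1.92 for PRKAB2, -1.60 for SLC11A2, -0.72 for BTG3 and -1.96 for SORL1. CSF2 was at 8.86, 3.55 and 5.65 FPKM with CW14 alone and listed at 0 in the control and combined libraries. CSF2 and TNF passed the filter only through the CW14 group. NUPR1 and PDGFRA passed it only through the combined group, which favours positive values. Without control replicate 2 or 3 the interaction was called in 19 and 17 genes of all those tested.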

How the results depend on the processing

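The count of genes called between the combined group and OTA, 2070, stayed between 1443 and 2109 under another pseudocount, other filters, other scalings, robust moderation, the replicate block and GC correction. It was 7703 with array weights, which gave combined replicate 1 a weight of 32.2 and combined replicate 3 one of 0.0421, 70 with the compared groups alone (2162 without combined replicate 3), and 653 to 3388 when 1 library was left out. The lowest was without OTA replicate 2 and the highest without combined replicate 2. Median-centring moved the split to 774 higher and 1335 lower (36.7% higher against 48.6%). The interaction count, 431, was 235 with no filter, 5124 with array weights, 286 with the replicate block, 1710, 1571 and 1430 without combined replicate 3 after median-centring, quantile normalization and GC correction, and 17 to 1595 when 1 library was left out. Residuals of same-numbered OTA and combined libraries correlated at -0.00184, 0.0221 and -0.0367. With 3 libraries a group, this cannot show whether libraries of the same number shared a culture or batch. With the replicate block 1807 genes were called between the groups. Of 119 called genes given with values, 102 lost the call with the compared groups alone, 17 kept it in every alternative and 67 held past the threshold in every alternative outside those with the compared groups alone. The others lost it mainly without an OTA library (36, 42 and 40 genes for replicates 1, 2 and 3), 18 under quantile normalization, 15 after GC correction and 10 without combined replicate 3. Of 41 called genes only named, 6 lost the call without combined replicate 3, 9 after GC correction and 37 with the compared groups alone. CDH1 changed sign, to 0.055, with quantile normalization and combined replicate 3 left out together, a setting added after the data were seen, as were the other pairs of a scaling with that library left out. The cause was not tested. With FPKM alone, the counting error of low genes is unknown.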

Other observations

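Several gene groups not described above held called genes. Integrins, the receptors that anchor cells to matrix, were among the 6 of 22 tested genes of wound repair and matrix that were lower, with PLAU the 1 called higher, and 8 lower and 3 higher without combined replicate 3. ITGB1 was at 163, 174 and 182 FPKM with OTA and 114, 109 and 69.2 FPKM with OTA and CW14 (-0.85 ± 0.18 (SE), adjusted p = 0.0119). ITGAV and ITGB6, which pair as a receptor that activates TGF-beta, differed by -1.06 and -1.23, and by -0.61 and -0.87 without combined replicate 3. Of 27 autophagy and lysosome genes 6 were lower and 0 higher, with 9 and 0 without that library. MAP1LC3B and GABARAPL1, which tag the autophagosome membrane, went from 124, 123 and 107 FPKM to 76.4, 76.8 and 66 FPKM and from 125, 116 and 101 FPKM to 78.3, 69.9 and 51.1 FPKM. Actin, SRF and YAP targets were lower in 7 of 32 and higher in 1, and in 10 and 3 without that library. RHOB, a small GTPase, went from 61.2, 84.6 and 50.6 FPKM to 36, 42.4 and 23.6 FPKM. MYL12A, a myosin light chain, went from 590, 529 and 639 FPKM to 359, 304 and 459 FPKM, and its call was lost after GC correction, adjusted p = 0.0572. AMOTL2, a YAP target and inhibitor, was the member called higher (0.85, adjusted p = 0.0228), a call lost after GC correction, adjusted p = 0.117.

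Genes of cholesterol synthesis split, with 2 of 27 higher and 4 lower, 3 and 7 without combined replicate 3, and 4 and 1 under quantile normalization. Of those higher, TM7SF2 was at 48.2, 45.1 and 124 FPKM in the combined group and MVK at 32.7, 23 and 64.6 FPKM, with replicate 3 far above the others. Their differences were 1.07 and 0.95, and 0.60 and 0.55 without that library. HMGCS1, which makes the precursor of mevalonate, went from 288, 356 and 296 FPKM to 226, 238 and 134 FPKM, and SC5D from 202, 223 and 197 FPKM to 132, 140 and 68.4 FPKM. The call of HMGCS1 was lost after GC correction, adjusted p = 0.055. Of 29 genes of AU-rich mRNA decay and deadenylation 5 were lower and 1 higher, and 2 and 1 after GC correction. BTG3, which binds the deadenylase, went from 49.3, 51.9 and 52.3 FPKM to 27.8, 32.1 and 30.2 FPKM, and CNOT7, a catalytic subunit, from 71.1, 70 and 66.7 FPKM to 47.4, 47.3 and 33.1 FPKM. Of 359 zinc finger ZNF genes 21 were higher (5.85%) and 13 lower (3.62%), against 7.79% and 8.22% of all genes. Without combined replicate 3 it was 9.75% and 3.90%, against 9.41% and 11.8%. ZNF254 went from 12.4, 14.6 and 11.8 FPKM to 5.23, 6.95 and 2.79 FPKM and ZNF503 from 3.07, 3.55 and 2.88 FPKM to 8.57, 7.44 and 7.36 FPKM. Of 16 genes of lipid absorption 2 were higher and 2 lower, 12.5% each way; it was 2 and 6 without combined replicate 3 and 4 and 2 under quantile normalization. Of 19 genes of fatty acid oxidation 0 were higher and 1 lower, and 1 and 2 without that library. Of 10 EGF ligands and receptors 0 were higher and 1 lower, and 2 and 1 without it.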
